A study of Mus musculus with 20 samples.

Results

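The genes described are 37 interferon-stimulated genes of the mouse, named by symbol in a given list and matched to the Ensembl identifiers of the gene count table, which holds 37620 genes. All 37 symbols matched 1 identifier each, and all 37 passed the filter on low counts in each comparison. The list spans transcription factors (Irf7, Irf9 and Stat2), sensors of foreign nucleic acid (Ifih1, Ddx58, Dhx58 and Zbp1), the oligoadenylate synthetase family with the kinase PKR (Oas1a, Oas2, Oas3, Oasl1, Oasl2 and Eif2ak2), the IFIT and MX group with its neighbours (Ifit1, Ifit2, Ifit3, Mx2, Rsad2 and Cmpk2), the ISG15 system (Isg15, Usp18, Herc6 and Trim25), the PARP group (Parp9, Parp14 and Dtx3l), the guanylate-binding proteins Gbp2 and Gbp3, the chemokine Cxcl10, and 8 other effectors (Bst2, Ifi27l2a, Ifi35, Ifi44, Rtp4, Samd9l, Trim12a and Xaf1).

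RNA from whole bone marrow was read from 20 transplanted mice after depletion of ribosomal RNA, with 5 mice in each of 4 groups. Recipients carried donor marrow with a doxycycline-inducible transgene for U2AF1(S34F), a splicing factor with the hotspot mutation found in myelodysplastic syndromes, or for U2AF1(WT), and were infused with vehicle or sudemycin D6, which acts on SF3B1, the subunit of the spliceosome that holds the branch point. The labels call the U2AF1(WT) groups Veh_WT and Sud_WT and the U2AF1(S34F) groups Veh_MUT and Sud_MUT, for vehicle and for sudemycin D6. Mice of every group carried the rtTA transactivator and ate doxycycline chow (625 ppm) for 7 days, so no group lacked a transgene or doxycycline. Sudemycin D6 (50 mg per kg per day) or vehicle was infused through a jugular catheter over 4 h on the last 5 of those days, and RNA was taken 18 h after the last infusion. Donors were 8 to 12 weeks old and recipients 6 to 12 weeks old at transplantation, at least 6 weeks before induction. Marrow of 2 to 3 donors was pooled before it was given to lethally irradiated congenic F1 recipients of a C57BL/6 by 129S4Sv/Jae cross, of the donors' sex, whose stroma and surviving blood cells lack the transgene. Vehicle was a cyclodextrin in phosphate buffer. The spread between mice of a group therefore does not cover differences between donor pools.

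Interferon-stimulated genes are switched on when type I or type III interferon binds its receptor and the kinases JAK1 and TYK2 become active. They switch on the complex ISGF3, which includes STAT2 and IRF9 and binds the interferon-stimulated response element (ISRE) in promoters, whereas interferon gamma acts mainly through the gamma-activated site (GAS). In unchallenged bone marrow the genes are held at a tonic level by small amounts of interferon, and IRF7, itself an induced gene, feeds back on interferon production.

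The gene counts of a mouse summed to between 41145892 and 62138138 (median 51836276). The genotypes differed in sex-linked transcripts: Xist stood at 879 to 1593 CPM (counts scaled to a common library size) in the U2AF1(WT) mice and at no more than 0.145 in the U2AF1(S34F) mice, and the Y-linked genes the other way round. Sex and transgene therefore cannot be told apart in the genotype comparisons, whereas each drug comparison lies within one pattern. A gene count does not separate the S34F transgene from other U2AF1 transcripts, so U2af1 (34.9 to 48.3 CPM in the U2AF1(WT) mice, 46.4 to 58.0 in the U2AF1(S34F) mice) does not check the labels. In whole marrow, fewer cells of a type and less RNA per cell cannot be told apart for any gene below. Of 9 neutrophil markers none was at 0, and they summed to 61110 to 143500 CPM, as whole marrow holds many of these cells, while the liver and pancreas genes Alb and Ins2 had no counts.

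Before the comparisons, 2 mice have to be named. Mouse 8 of the sudemycin-treated U2AF1(WT) group was the highest of its group for 32 of the 37 genes, where it was the highest for 20.2% of all genes tested, and it lay a median of 0.964 (log2) above the median of its group mates. Mouse 5 of the vehicle-treated U2AF1(S34F) group was the highest for 30 of 37, against 17.3% of all genes, with a median difference of 0.561 (log2). A separate list of 16 genes induced mainly by interferon gamma moved with them. Their summed level was 1102 CPM in mouse 8 against 398 to 416 CPM in the other mice of its group, and 807 CPM in mouse 5 against 445 to 526 CPM in the others. The vehicle-treated U2AF1(WT) mice lay at 447 to 512 CPM and the sudemycin-treated U2AF1(S34F) mice at 354 to 431 CPM. The part of these genes in the results below was not tested, and counts that turn on either mouse are given with and without it.

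The 37 genes differed widely in level. Per kilobase of exon, the mean over the 20 mice ran from 0.222 CPM for Ifi44, a cytoplasmic protein that forms filamentous arrays, to 85.6 CPM for Samd9l, a growth-restricting antiviral protein of haematopoietic cells. Next to Samd9l stood Ifi27l2a at 22.7, the nucleotide kinase gene Cmpk2 at 18, the ubiquitin ligase gene Trim25 at 17.8 and Gbp2 at 16.8 CPM per kilobase. The counts behind these values ran from 9 for Ifi44 in a single mouse to 36639 for Samd9l.

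**Figure D1:**
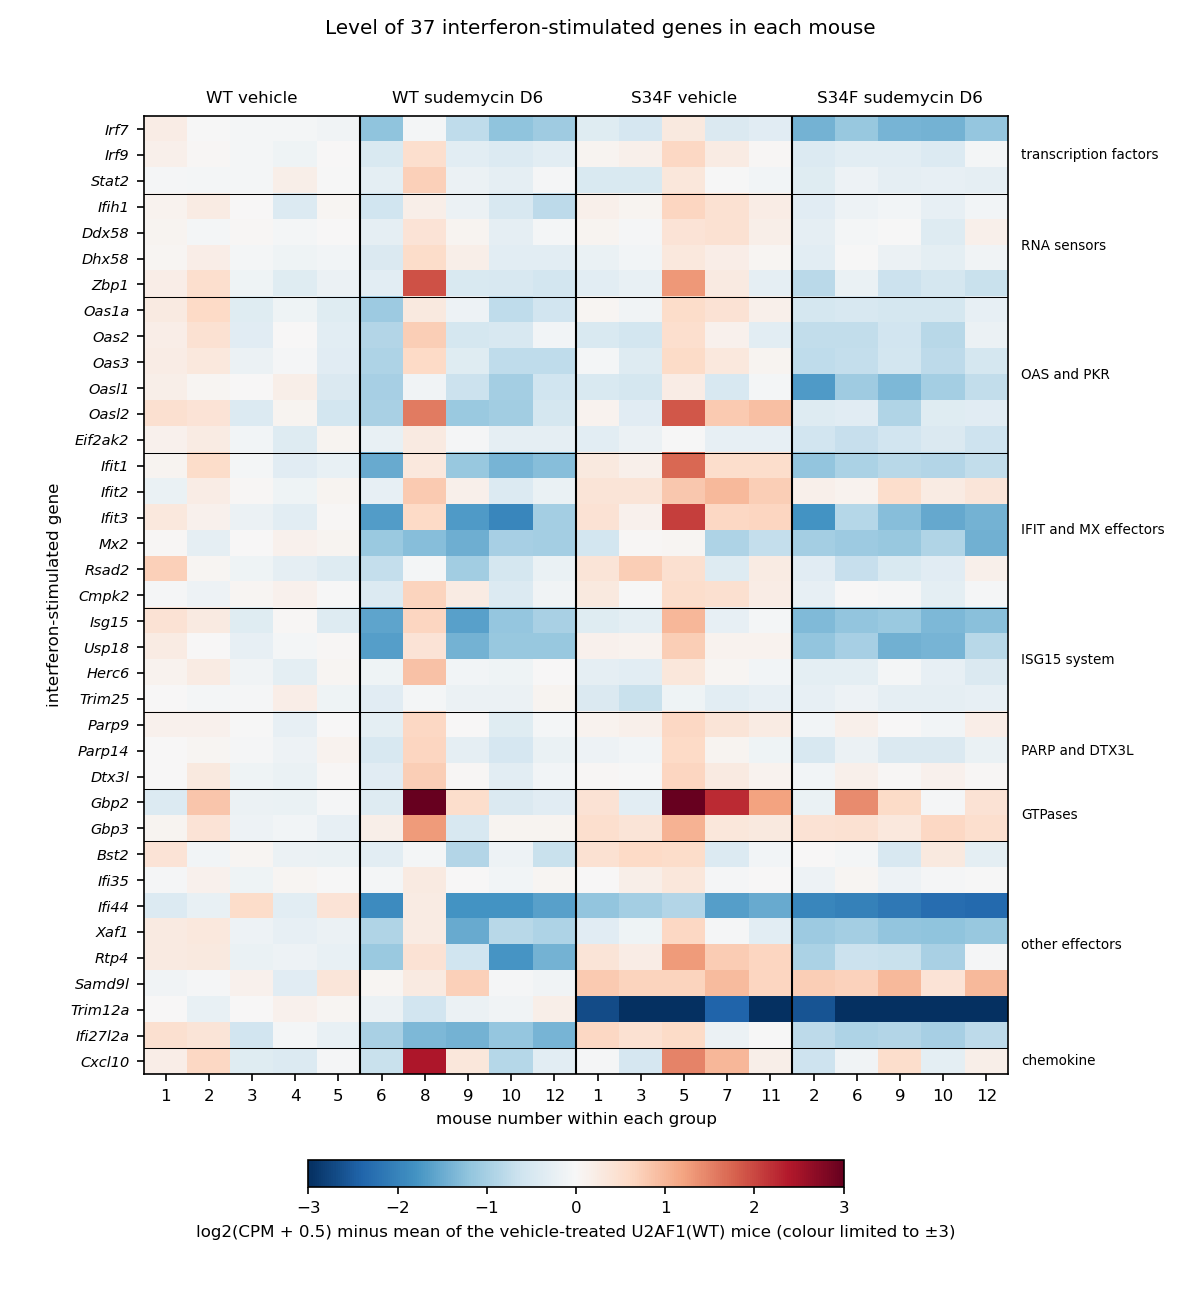
Level of the 37 interferon-stimulated genes (rows, grouped by role) in each of the 20 mice (columns, grouped by genotype and treatment). Colour is log2(CPM + 0.5) minus the mean of the 5 vehicle-treated U2AF1(WT) mice, on a scale that ends at 3 in both directions. Mouse 8 of the sudemycin-treated U2AF1(WT) group and mouse 5 of the vehicle-treated U2AF1(S34F) group stand out from their group mates, and Trim12a is low in all 10 U2AF1(S34F) mice.

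RefSeq promoter windows of build GRCm38.p6 (250 bases before to 50 after the start site) were at hand for 28 of the 37 genes. A gene was counted if any of its windows held a match, whereas the shares of all windows count each window singly, so the 2 units differ. The core of the ISRE, searched as GAAA, any 2 bases and GAAA again on both strands, occurred in 15 of the 28 (53.6%), against 3.44% of all 32851 windows. The GAS, searched as TTCNNNGAA on both strands, occurred in 5 of the 28 (17.9%), against 8.3% of all windows, and the GAS match of Bst2 overlaps its ISRE match. The stretches below hold ISRE matches of members that were lower under sudemycin D6 (Isg15, Ifit1, Ifit3, Oas3, Rsad2 and Bst2) and of members that were not called for the drug in the fit over both genotypes (Gbp2 and Cxcl10). Members with a match that are not printed were Eif2ak2, Ifih1 and Oas1a, also lower, and Ddx58, Gbp3, Stat2 and Trim12a, not called. Capitals mark the motif on either strand, and each stretch is written 5′ to 3′ on the strand of its gene.
Isg15, chr4:156200871-156200900, minus strand, 3 overlapping matches: gtagGAAAAGGAAACCGAAACAGAAAatag
Ifit1, chr19:34640775-34640804, plus strand: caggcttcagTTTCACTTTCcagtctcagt
Ifit3, chr19:34583363-34583392, plus strand: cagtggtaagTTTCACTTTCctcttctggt
Oas3, chr5:120777715-120777744, minus strand: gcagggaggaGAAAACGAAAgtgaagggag
Rsad2, chr12:26456553-26456582, minus strand: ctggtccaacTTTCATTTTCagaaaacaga
Bst2, chr8:71537580-71537609, minus strand, 2 overlapping matches: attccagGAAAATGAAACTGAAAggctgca
Gbp2, chr3:142620594-142620623, plus strand: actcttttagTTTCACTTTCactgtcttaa
Cxcl10, chr5:92349083-92349112, minus strand: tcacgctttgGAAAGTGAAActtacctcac
Counted to their first base, the matches lay 78 bases before the start site in Isg15, 104 in Ifit1, 156 in Ifit3, 75 in Oas3, 120 in Rsad2, 130 in Bst2, 59 in Gbp2 and 213 in Cxcl10. Ifit1 and Ifit3 each held another match, 85 and 122 bases before the start. Among the 13 windows without the letters of the ISRE core were those of Irf7, Irf9, Xaf1, Oasl1 and Ifi44, which were also lower under the drug. The others were those of Cmpk2, Dtx3l, Herc6, Ifi35, Ifit2, Oasl2, Samd9l and Trim25, which were not called in that fit. A match is a description of the letters in the window and no more.

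The first question was what sudemycin D6 did to these genes whatever the transgene. In the fit of the drug effect over both genotypes, which used all 20 mice, 18 of the 37 genes were lower under sudemycin D6 and 0 were higher at FDR<10%. Of all 15392 genes tested, 15.0% were called in either direction, 7.22% lower and 7.78% higher. The median log2 fold change was −0.34 over the 37 genes and 0.01 over all genes, and 33 of the 37 values lay below 0, against 48.6% of all genes. The 18 genes included 4 of 6 in the OAS and PKR group, 4 of 6 in the IFIT and MX group, 2 of 4 in the ISG15 system and 2 of the 3 transcription factors. Neither guanylate-binding protein, none of the PARP group and not the chemokine were called. Without mouse 8 the count was 27, beside 12.6% of all genes. Without mouse 5 of the vehicle-treated U2AF1(S34F) group it was 16, beside 13.3%, with 29 of the 37 values below 0 and a median of −0.24. Without both mice that stood apart it was 22, beside 11.1%. All genes called in these fits were lower.

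Irf7, the transcription factor that drives the interferon alpha genes (chr7:148448605-148452380, minus strand, build NCBIM37 here and for the genes below), was 1.93-fold lower. It stood at 47.2, 40.2, 39.1, 39.2 and 37.8 CPM in mice 1, 2, 3, 4 and 5 of the vehicle-treated U2AF1(WT) group and at 17.3, 38.7, 23.6, 17.2 and 19 CPM in mice 6, 8, 9, 10 and 12 of the sudemycin-treated one. In the U2AF1(S34F) marrow it stood at 31.7, 28.5, 49.6, 29.9 and 31.7 CPM in vehicle-treated mice 1, 3, 5, 7 and 11 and at 14.9, 18.1, 15.1, 14.8 and 17.8 CPM in sudemycin-treated mice 2, 6, 9, 10 and 12. Only mouse 8 kept the U2AF1(WT) groups from being separate, and the U2AF1(S34F) groups did not overlap (log2 fold change −0.95, SE 0.13, adjusted p = 9.97e-05, edgeR's quasi-likelihood test). The mice are listed in this order throughout. Irf9, the DNA-binding part of ISGF3, was 1.27-fold lower (log2 fold change −0.35, SE 0.11, adjusted p = 0.0524). Its partner Stat2 had a log2 fold change of −0.06 (SE 0.12), which did not pass the test.

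Of the oligoadenylate synthetase family and PKR, 4 of 6 genes were lower. Oasl1, a synthetase-like protein without enzyme activity that restrains the translation of Irf7 (chr5:115373249-115387924, plus strand), was 1.77-fold lower. Its level was 14.2, 13.2, 12.6, 14.3 and 9.21 CPM in the vehicle-treated and 6.0, 11.7, 7.79, 5.92 and 8.12 CPM in the sudemycin-treated U2AF1(WT) mice. U2AF1(S34F) marrow held 8.97, 8.49, 14.6, 8.84 and 12 CPM with vehicle and 3.5, 5.7, 4.66, 5.92 and 7.3 CPM with the drug. In the U2AF1(WT) groups only mouse 8 of the treated and mouse 5 of the vehicle group overlapped, and in the U2AF1(S34F) groups none did (log2 fold change −0.82, SE 0.15, adjusted p = 0.000962). The synthetase genes Oas1a and Oas3, whose products activate RNase L, were each 1.49-fold lower (log2 fold changes −0.58 and −0.58, SE 0.16 and 0.17). Eif2ak2, the gene of PKR, was lower by 1.19-fold (log2 fold change −0.25, SE 0.08, adjusted p = 0.0630). Oas2 (−0.34, SE 0.19) and Oasl2 (−0.70, SE 0.39) did not pass.

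In the IFIT and MX group, 4 of 6 genes were lower. Mx2, a dynamin-like GTPase that blocks viruses (chr16:97757690-97782506, plus strand), was 2.35-fold lower. It stood at 2.91, 2.25, 2.82, 3.13 and 3.01 CPM in the vehicle-treated and 1.04, 0.86, 0.696, 1.15 and 1.14 CPM in the sudemycin-treated U2AF1(WT) mice, which did not overlap. Among the U2AF1(S34F) mice the values were 1.76, 2.89, 2.95, 1.26 and 1.51 CPM with vehicle and 1.13, 1.05, 0.997, 1.28 and 0.714 CPM with the drug. There vehicle-treated mouse 7 fell just inside the range of the treated mice, and mice 3 and 5 were far above it (log2 fold change −1.23, SE 0.17, adjusted p = 6.79e-05). Ifit1, which binds viral RNA that lacks cap methylation, was 2.75-fold lower (log2 fold change −1.46, SE 0.29, adjusted p = 0.00275). Rsad2, the gene of viperin, was 1.51-fold lower (log2 fold change −0.60, SE 0.16, adjusted p = 0.0244).

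Ifit3, which stabilises IFIT1 (chr19:34658021-34663221, plus strand), had the highest fold among the 37 genes, 3.56-fold lower. Its levels, like those of Isg15, Gbp2, Samd9l and Ifit2 below, are given in full because of values already seen, outside the rule for named genes. They were 4.45, 3.89, 3.06, 2.74 and 3.59 CPM in the vehicle-treated and 0.753, 5.56, 0.741, 0.531 and 1.48 CPM in the sudemycin-treated U2AF1(WT) mice. In the U2AF1(S34F) mice they were 4.89, 3.88, 16.2, 5.69 and 5.71 CPM with vehicle and 0.662, 1.7, 1.16, 0.886 and 0.992 CPM with the drug. Treated mouse 8 exceeded every vehicle-treated U2AF1(WT) mouse, its 4 group mates lay under all of them, and the U2AF1(S34F) groups did not overlap (log2 fold change −1.83, SE 0.43, adjusted p = 0.0102). Ifit2, the pro-apoptotic family member (−0.16, SE 0.14), and Cmpk2 (−0.19, SE 0.12) did not pass.

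Both the modifier and its protease in the ISG15 system were lower. Usp18 removes ISG15 from proteins and also silences the interferon receptor (chr6:121195924-121220934, plus strand), and it was 2.40-fold lower. It stood at 5.42, 4.54, 3.68, 4.29 and 4.56 CPM in the vehicle-treated and 1.09, 6.06, 1.37, 1.76 and 1.76 CPM in the sudemycin-treated U2AF1(WT) mice. U2AF1(S34F) marrow held 4.95, 4.82, 7.81, 4.81 and 4.81 CPM with vehicle and 1.67, 1.97, 1.32, 1.4 and 2.28 CPM with the drug. Mouse 8 again lay above all vehicle-treated U2AF1(WT) mice while its group mates lay below them, and the U2AF1(S34F) groups were separate (log2 fold change −1.26, SE 0.25, adjusted p = 0.00224).

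Isg15, the ubiquitin-like modifier itself (chr4:155573533-155574927, minus strand), showed the same arrangement at a lower level. Its values were 4.35, 3.76, 2.28, 3.17 and 2.21 CPM in vehicle-treated and 0.696, 5.03, 0.651, 1.1 and 1.31 CPM in sudemycin-treated U2AF1(WT) mice. With the S34F transgene they were 2.25, 2.4, 6.59, 2.49 and 2.91 CPM and 0.923, 1.07, 1.14, 0.905 and 0.992 CPM. All 5 treated U2AF1(S34F) mice and 4 of the 5 treated U2AF1(WT) mice lay below every vehicle-treated mouse of their genotype, and mouse 8 lay above (log2 fold change −1.26, SE 0.32, adjusted p = 0.0162). The ligases of the system, Herc6 (−0.03, SE 0.13) and Trim25 (−0.01, SE 0.07), were not called.

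Of the 8 other effectors, 5 were lower. Ifi27l2a, a mitochondrial protein of the IFI27 family (chr12:104680377-104681890, minus strand), had the smallest adjusted p of all 37 genes and was 2.49-fold lower. It stood at 18.4, 17, 8.54, 12.5 and 11 CPM in the vehicle-treated and 6.38, 4.82, 4.51, 5.55 and 4.67 CPM in the sudemycin-treated U2AF1(WT) mice. Among the U2AF1(S34F) mice the values were 20.3, 18.2, 19.6, 11.4 and 13 CPM with vehicle and 7.38, 6.66, 6.78, 6.3 and 7.3 CPM with the drug. The groups were separate in both genotypes, mouse 8 included (log2 fold change −1.31, SE 0.13, adjusted p = 1.10e-06). The annotation gives 46.4% of its exonic bases to Ifi27l2b on the same strand too, and Ifi27l2b had 0 to 2 counts per mouse, so reads shared by the pair cannot be assigned with certainty.

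Xaf1, an antagonist of the apoptosis inhibitor XIAP (chr11:72115131-72127235, plus strand), was 1.94-fold lower. It stood at 14.4, 14.9, 10.7, 9.91 and 10.4 CPM in the vehicle-treated and 6.15, 14.1, 3.84, 6.48 and 6.0 CPM in the sudemycin-treated U2AF1(WT) mice. With the S34F transgene it stood at 9.31, 10.9, 18.6, 11.7 and 9.45 CPM and 5.35, 5.59, 4.97, 4.88 and 5.12 CPM. The treated U2AF1(S34F) mice lay within a narrow range under all vehicle-treated mice, and mouse 8 was the only treated U2AF1(WT) mouse within the vehicle range (log2 fold change −0.96, SE 0.18, adjusted p = 0.00202). Ifi44 was 2.91-fold lower (log2 fold change −1.54, SE 0.33, adjusted p = 0.00511), Rtp4, a chaperone of receptors at the cell surface, 2.10-fold (log2 fold change −1.07, SE 0.25, adjusted p = 0.00991) and Bst2, the tetherin that holds back budding virus, 1.32-fold (log2 fold change −0.40, SE 0.14, adjusted p = 0.0830). Ifi35, Samd9l and Trim12a had log2 fold changes of −0.07, 0.11 and −0.18 and were not called.

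**Figure D2:**
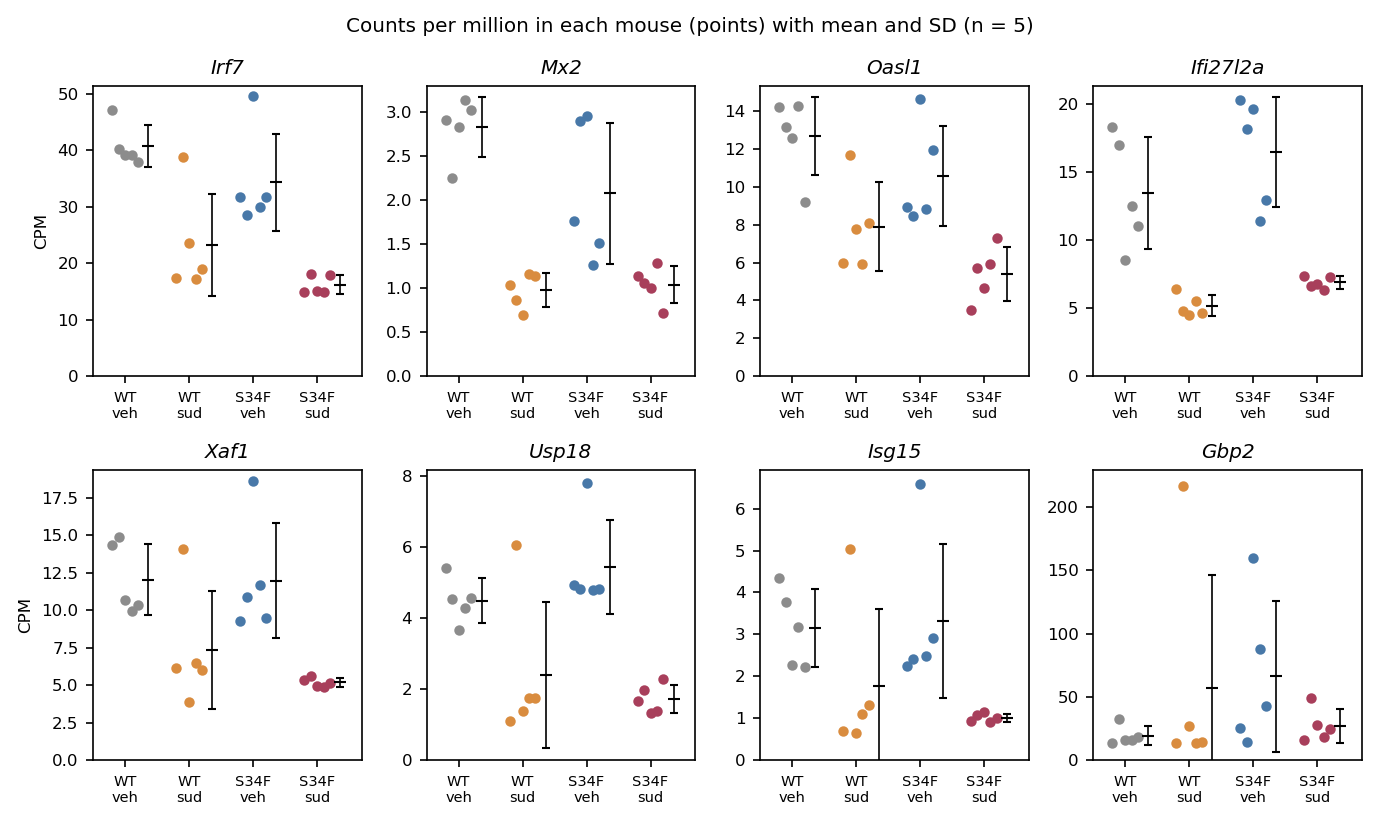
Level in CPM (linear axes from 0) of Irf7, Mx2, Oasl1, Ifi27l2a, Xaf1, Usp18, Isg15 and Gbp2 in each mouse under vehicle (veh) and sudemycin D6 (sud), for both genotypes. Points are mice, and lines are the mean ± SD of 5 mice, cut at the axis where they would reach below 0. In Mx2 and Ifi27l2a all treated mice lie low, in Irf7, Oasl1, Xaf1, Usp18 and Isg15 all but mouse 8 of the U2AF1(WT) group do, and in Gbp2 single mice reach up to 217 CPM.

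Among the sensors, Ifih1, the gene of MDA5, was 1.35-fold lower (log2 fold change −0.43, SE 0.11, adjusted p = 0.0135). Ddx58, the gene of RIG-I (−0.17, SE 0.09), its regulator Dhx58 (−0.13, SE 0.11) and Zbp1, a sensor of Z-form nucleic acid (−0.25, SE 0.36), were not called. Neither were the ADP-ribosyltransferase genes Parp9 and Parp14 or Dtx3l, the ligase that pairs with PARP9, with values of −0.13, −0.27 and −0.06. Gbp3 (0.13) and Cxcl10, the ligand of CXCR3 (0.06), lay slightly above 0, with SE of 0.17 and 0.52.

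Gbp2, a GTPase that coats vacuoles of intracellular pathogens (chr3:142283566-142300972, plus strand), had the largest SE of the 37 genes in this fit. It stood at 13.6, 32.6, 16, 15.9 and 17.8 CPM in the vehicle-treated and 13.8, 217, 26.7, 13.3 and 14.4 CPM in the sudemycin-treated U2AF1(WT) mice. With the S34F transgene it stood at 24.9, 14.4, 160, 87.8 and 42.9 CPM and 15.9, 49.3, 27.6, 17.8 and 24.9 CPM. Mouse 8 was the highest of all 20 mice, mice 5 and 7 of the vehicle-treated U2AF1(S34F) group were next, and all 4 groups overlapped. The estimate for the drug over both genotypes was 0.13 with an SE of 0.71, so a change of this gene was not detectable here.

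The drug was then tested within each genotype on its own 10 mice. In the U2AF1(WT) mice, 4 of the 37 genes were lower and 0 were higher, beside 3.07% of all 14763 genes called in either direction, 1.89% lower and 1.18% higher. These were Mx2 (log2 fold change −1.51, SE 0.21, adjusted p = 0.00230), Ifi27l2a (log2 fold change −1.39, SE 0.20, adjusted p = 0.00329), Irf7 (log2 fold change −0.84, SE 0.19, adjusted p = 0.0521) and Oasl1 (log2 fold change −0.71, SE 0.19, adjusted p = 0.0845). The median over the 37 genes was −0.18 and over all genes 0.00. Without mouse 8, 15 genes were lower and 0 higher, and 1.85% of all genes were called. The 11 further genes were Ifi44 (−2.52, adjusted p = 0.00137), Usp18 (−1.58, adjusted p = 0.00262), Ifit1 (−1.68, adjusted p = 0.00506), Ifit3 (−1.99, adjusted p = 0.00524), Isg15, Xaf1, Rtp4, Oas3, Irf9, Oasl2 and Parp14. The median over the 37 genes was then −0.53. Without any 1 of vehicle-treated mice 1 and 3 or of treated mice 9, 10 and 12, Mx2 and Ifi27l2a were the 2 genes called.

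In the U2AF1(S34F) mice, 21 of the 37 genes were lower under sudemycin D6 and 0 were higher, beside 10.8% of all 14714 genes called in either direction, 5.85% lower and 4.94% higher. The median was −0.55 over the 37 genes and −0.01 over all genes, and 35 of the 37 values lay below 0. Usp18 (log2 fold change −1.64, SE 0.20, adjusted p = 0.00116) and Ifi27l2a (log2 fold change −1.26, SE 0.15, adjusted p = 0.00116) had the smallest adjusted p. Ifit3 (log2 fold change −2.72, SE 0.41, adjusted p = 0.00488) and Ifit1 (log2 fold change −1.93, SE 0.30, adjusted p = 0.00502) had the greatest change. Isg15 (−1.69), Ifi44 (−1.68), Rtp4 (−1.4), Oasl2 (−1.37), Xaf1 (−1.21) and Irf7 (−1.09) all fell by more than a log2 value of 1, with SE from 0.15 to 0.37 and adjusted p from 0.00211 to 0.0567. The other 11 were Mx2, Oasl1, Oas3, Oas1a, Rsad2, Irf9, Ifih1, Cmpk2, Parp14, Ifit2 and Eif2ak2, with log2 fold changes from −0.98 to −0.39, SE from 0.07 to 0.26 and adjusted p from 0.00791 to 0.0940. The 4 genes called in the U2AF1(WT) mice, which share no animal with this comparison, were 4 of these 21. Without mouse 5 of the vehicle group 19 genes were lower and 0 higher, beside 11.7% of all genes called. The median over the 37 genes was then −0.42, with 35 values below 0.

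The groups did not overlap for 16 of the 37 genes in the U2AF1(S34F) mice, all lower, where 3.97% of all genes were separated with the treated mice lower and 3.83% with them higher. In the U2AF1(WT) mice it was 2, Mx2 and Ifi27l2a, both lower, beside 2.26% of all genes lower and 1.89% higher.

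**Figure D3:**
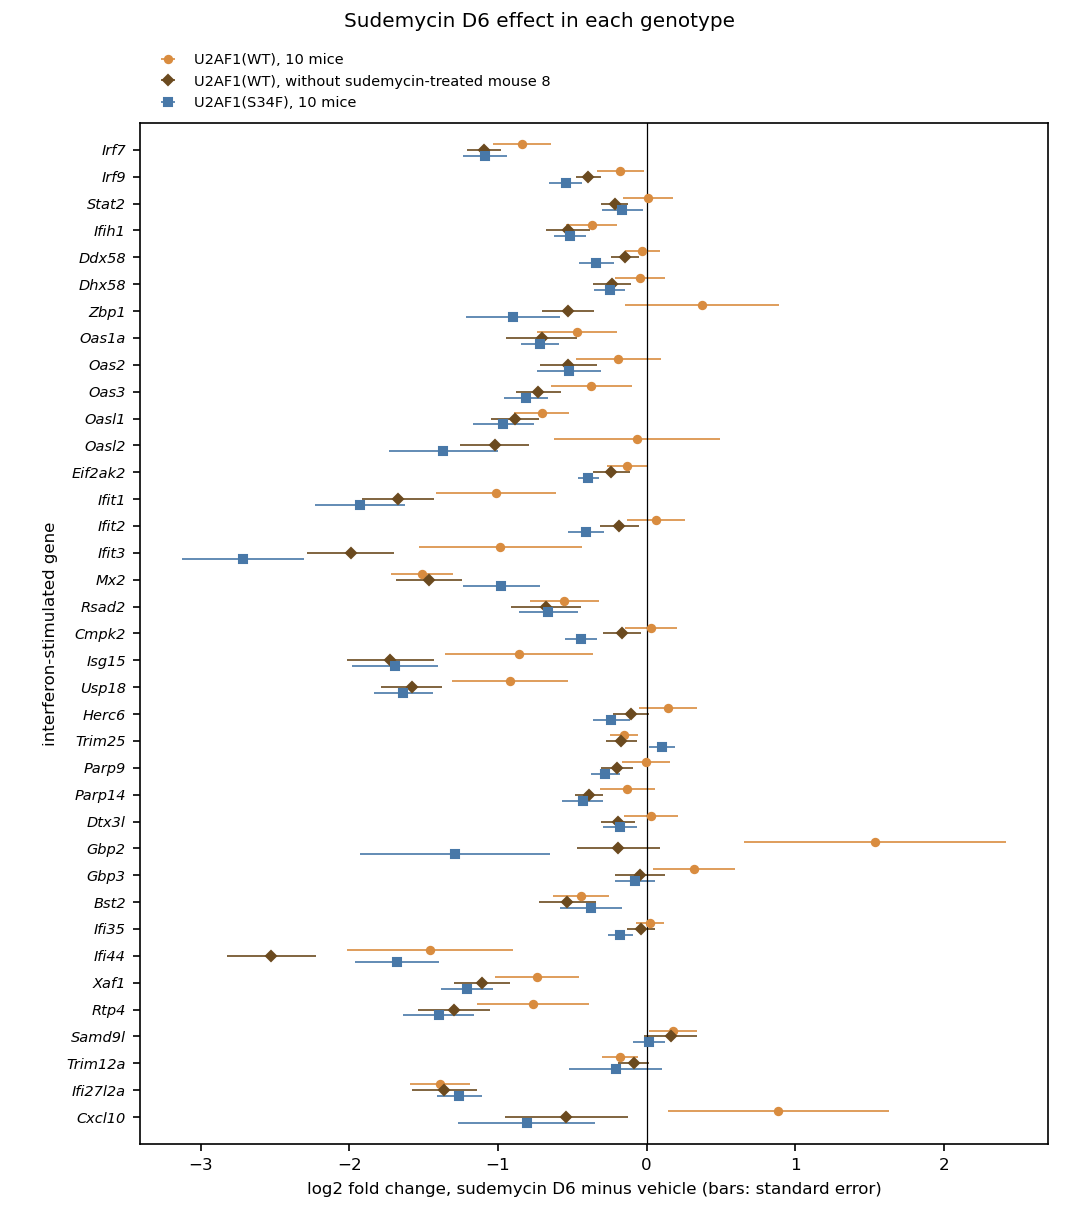
Log2 fold change of sudemycin D6 against vehicle, with its SE, for each of the 37 genes in the U2AF1(WT) mice (10 mice), in the same mice without mouse 8, and in the U2AF1(S34F) mice (10 mice). Values below 0 are lower under the drug, and leaving out mouse 8 shifts most values of the U2AF1(WT) mice downwards, to a median of −0.53 from −0.18.

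Whether the drug effect differed with the transgene was tested as the interaction over all 20 mice. It was called for 0 of the 37 genes, beside 0.013% of all 15392 genes (2 genes), and DESeq2 called 0 as well. At an unadjusted p under 0.05 there were 3 genes, Gbp2, Ifit3 and Cmpk2, with interaction values of −2.85, −1.75 and −0.49 (log2) and adjusted p of 0.551, 0.595 and 0.648. Of the 37 interaction values 33 lay below 0, against 56.8% of all genes, and their median was −0.32. Without mouse 5 of the vehicle-treated U2AF1(S34F) group alone 33 lay below 0 and the median was −0.17. Without mouse 8 of the treated U2AF1(WT) group 28 lay below 0, 0 passed an unadjusted p under 0.05 and the median was −0.10. Without that mouse and mouse 5 of the vehicle-treated U2AF1(S34F) group 11 lay below 0, against 51.4% of all genes, and the median was 0.09, so the direction of these values turned with the 2 mice. The higher count of called genes in the U2AF1(S34F) mice is therefore not shown to be a different response.

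Markers of plasmacytoid dendritic cells, the cells that make the most interferon alpha, were in part lower under the drug. Of 5 markers, none of them at 0, 3 were lower in the fit over both genotypes: Siglech, a lectin of these cells (−1.32, SE 0.29, adjusted p = 0.00564), Klk1 (−1.46, adjusted p = 0.0427) and Cox6a2 (−0.86, adjusted p = 0.0729). Pacsin1 and Ccr9 were not called, and 7.22% of all genes were lower in this fit. Without mouse 8 the count was 2 of 5. Within the U2AF1(WT) mice 0 of the 4 markers tested were called. Within the U2AF1(S34F) mice 1 of 5 was lower, and 0 without mouse 5 of the vehicle group. The 5 genes summed to 9.49 to 25 CPM in the vehicle-treated and 4.42 to 11.7 CPM in the sudemycin-treated U2AF1(WT) mice, and to 4.86 to 18.1 CPM and 3.43 to 7.92 CPM in the U2AF1(S34F) mice. Mouse 8 had 4.55 CPM, among the lowest sums of its group. In the fit over both genotypes 2 of 7 B cell markers were lower (Vpreb1 and Igll1, genes of the surrogate light chain), of the megakaryocyte markers 2 of 4, and of the T and NK cell markers 1 of 8. Of the markers of conventional dendritic cells 1 of 5 was higher, Clec9a (0.80, adjusted p = 0.000624), and none of 4 plasma cell and 4 stroma markers was called. With the S34F transgene the conventional dendritic cell markers summed to 60.1 to 79.2 CPM with vehicle and 42.0 to 61.6 CPM with the drug, and the plasma cell markers to 190.3 to 457 CPM and 149.8 to 249 CPM. In the U2AF1(WT) mice the sums were 37.9 to 62.9 and 36.8 to 68.3 CPM for the first list, and 213 to 415 and 174 to 452 CPM for the second. No marker of neutrophils, monocytes, macrophages or erythroid cells was called in the fit over both genotypes. Within the U2AF1(WT) mice 1 of 9 macrophage markers was lower, beside 1.89% of all genes. Within the U2AF1(S34F) mice 1 of 7 erythroid markers was lower, beside 5.85%. The part of cell composition in the fall of the interferon-stimulated genes was not tested.

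The rest of the pathway was read from lists in the fit over both genotypes, where 7.22% of all genes were lower and 7.78% higher. Of 20 interferon genes only Ifng had enough counts to be tested, and it was lower (−0.89, SE 0.22, adjusted p = 0.0136), while 16 to 19 of the 20 had no count in any mouse of a group. Of 6 receptor genes 2 were higher, Ifngr1 (0.20) and Il10rb (0.16), and none of the others passed. None of 9 inhibitor genes was called. Of 14 genes that sense nucleic acid and induce interferon 3 were higher: Tlr7, a receptor for single-stranded RNA (0.63, SE 0.09, adjusted p = 0.000128), its adaptor Myd88 (0.27) and the kinase gene Ikbke (0.31). Of 32 further interferon-stimulated genes 10 were lower and 1 was higher, with a median of −0.14. Slfn5 (−1.0, adjusted p = 0.00169), Mx1 (−0.71, adjusted p = 0.00602), Ddx60 (−0.69) and Isg20 (−0.43) were among those lower. Within the U2AF1(S34F) mice 13 of the 32 were lower under the drug and 0 higher, and within the U2AF1(WT) mice 2 were lower and 1 was higher. Of all genes, 5.85% were lower and 4.94% higher in the U2AF1(S34F) mice, and 1.89% and 1.18% in the U2AF1(WT) mice. Of the 16 genes induced mainly by interferon gamma, 1 was lower over both genotypes, Gbp9 (−0.63, SE 0.19, adjusted p = 0.0422). Within the U2AF1(S34F) mice 10 of these 16 were lower and 0 higher, and within the U2AF1(WT) mice, mouse 8 included, 0 were called. Without mouse 5 of the vehicle-treated U2AF1(S34F) group 8 of the 16 were lower there, beside 11.7% of all genes called in either direction. Without mouse 8 1 was lower in the U2AF1(WT) mice, beside 1.85%. Over both genotypes the count was 9 lower without mouse 8, 1 without mouse 5 alone and 8 without both of these mice. Of all genes, 12.6%, 13.3% and 11.1% were called in either direction in these fits. The fit without both mice was added after seeing the data.

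The genotypes were compared under vehicle first. Of the 37 genes 10 were higher and 3 lower in U2AF1(S34F) than in U2AF1(WT) mice, beside 39.5% of all 14817 genes called (19.7% higher, 19.8% lower). The share of the 37 genes called was thus no higher than that of all genes, and the median of the 37 was 0.22, against 0.00, with 11 of the 37 values below 0. Lower were Trim12a, Ifi44 (log2 fold change −1.64, SE 0.28, adjusted p = 0.00119) and Trim25 (log2 fold change −0.36, SE 0.11, adjusted p = 0.0193). Higher were Samd9l and Ifit2, given below, and 8 more: Rtp4 (0.71), Gbp3 (0.52), Cmpk2 (0.31), Parp9 (0.30), Ifit3 (1.02), Gbp2 (1.78), Ifit1 (0.79) and Ifih1 (0.31). The SE of these 8 ran from 0.10 to 0.64 and adjusted p from 0.0183 for Rtp4 to 0.0966 for Ifih1. Without mouse 5 of the U2AF1(S34F) group 6 were higher (Cmpk2, Gbp3, Ifit2, Ifit3, Rtp4 and Samd9l) and 7 lower (Eif2ak2, Ifi44, Irf7, Mx2, Oasl1, Trim12a and Trim25), beside 36.1% of all genes. The median of the 37 was then 0.08, with 16 values below 0. Of the genes induced mainly by interferon gamma 7 of 16 were higher in the full comparison and 1 lower, and without mouse 5 it was 5 higher and 1 lower. Of the neutrophil markers 4 of 9 were higher, and 3 of 6 monocyte and 2 of 5 plasmacytoid dendritic cell markers were lower. None of 7 B cell and 7 erythroid markers was called. The neutrophil markers summed to 66000 to 74730 CPM in the U2AF1(WT) and 87470 to 143500 CPM in the U2AF1(S34F) mice. The part of cell composition in the genotype differences was not tested.

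Under sudemycin D6, 2 of the 37 genes were higher and 6 lower in U2AF1(S34F) mice, beside 36.8% of all 14677 genes called (17.2% higher, 19.6% lower). Trim12a, Ifi44 (log2 fold change −1.86, SE 0.58, adjusted p = 0.0314), Eif2ak2 (log2 fold change −0.49, SE 0.11, adjusted p = 0.00542), Irf7 (log2 fold change −0.52, SE 0.20, adjusted p = 0.0710), Oasl1 (log2 fold change −0.54, SE 0.22, adjusted p = 0.0862) and Herc6 (log2 fold change −0.45, SE 0.19, adjusted p = 0.0900) were lower. Samd9l and Ifi27l2a (log2 fold change 0.40, SE 0.13, adjusted p = 0.0350) were higher. Without mouse 8 of the U2AF1(WT) group 7 were higher (Gbp3, Ifi27l2a, Ifih1, Ifit1, Ifit2, Oasl2 and Samd9l) and 3 lower (Eif2ak2, Ifi44 and Trim12a), beside 32.6% of all genes. The median of the 37 went from −0.17, with 27 values below 0, to 0.08, with 12 below 0. Irf7, Oasl1 and Herc6 were not called without mouse 8, nor without any 1 of treated U2AF1(S34F) mice 2, 9 and 10.

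Trim12a, a ubiquitin ligase of the TRIM5 family at chr7:111448408-111463980 (minus strand, NCBIM37), had the greatest genotype difference of the 37 genes. It stood at 41.7, 35.2, 41.8, 45 and 43.2 CPM in the vehicle-treated and 36.3, 27.6, 36.6, 38.2 and 46.5 CPM in the sudemycin-treated U2AF1(WT) mice. U2AF1(S34F) marrow held 6.03, 4.37, 2.88, 7.41 and 2.42 CPM with vehicle and 6.46, 3.39, 3.75, 2.88 and 3.51 CPM with the drug. All 10 U2AF1(S34F) mice lay far below all 10 U2AF1(WT) mice, under vehicle (log2 fold change −3.17, SE 0.28, adjusted p = 5.04e-05) and under sudemycin D6 (log2 fold change −3.2, SE 0.21, adjusted p = 3.04e-06). Its relatives in the same cluster on chromosome 7 were named after their values were seen. Under vehicle, Trim30d (−3.30, SE 0.37, adjusted p = 0.000167) and Trim5 (−2.76, SE 0.43, adjusted p = 0.00117) were lower, as was Trim34a (−0.27, adjusted p = 0.051), and Trim12c was higher (0.63, SE 0.08, adjusted p = 0.000171). Trim30a (0.02), Trim30c (0.35) and Trim34b (0.24) were not called. Trim12c went from 90.0 ± 7.03 to 141 ± 10.6 CPM (mean ± SD, n = 5). These paralogues are near-identical in stretches, so the counting may have split their reads, and the values of each are uncertain to that extent.

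Ifi44 (chr3:151393886-151412911, minus strand) was the other gene that was lower in both genotype comparisons. It stood at 2.06, 2.43, 4.56, 2.26 and 4.02 CPM in the vehicle-treated and 0.433, 3.54, 0.494, 0.495 and 0.60 CPM in the sudemycin-treated U2AF1(WT) mice. Among the U2AF1(S34F) mice the values were 1.01, 1.19, 1.37, 0.584 and 0.70 CPM with vehicle and 0.383, 0.344, 0.272, 0.207 and 0.179 CPM with the drug. The groups were separate between genotypes under either treatment, and mouse 8 lay within the range of the vehicle-treated U2AF1(WT) mice, far above its group mates. Without mouse 8 the difference under sudemycin D6 was −0.78 (adjusted p = 0.0582) in place of −1.86.

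Samd9l (chr6:3322257-3349571, minus strand) was higher in U2AF1(S34F) mice under either treatment. It stood at 308, 327, 362, 266 and 427 CPM in the vehicle-treated and 347, 405, 549.8, 323 and 312 CPM in the sudemycin-treated U2AF1(WT) mice. In the U2AF1(S34F) mice it stood at 579.7, 531, 529, 648 and 523 CPM with vehicle and 559.8, 539, 656, 445 and 650.2 CPM with the drug. The vehicle groups were separate (log2 fold change 0.72, SE 0.12, adjusted p = 0.000816), and in the treated groups mouse 9 of the U2AF1(WT) mice reached into the U2AF1(S34F) range (log2 fold change 0.55, SE 0.16, adjusted p = 0.0227).

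Ifit2 (chr19:34625184-34650909, plus strand) differed between genotypes under vehicle. It stood at 20.5, 27.6, 24.1, 21.3 and 24.8 CPM in the U2AF1(WT) and 31.1, 30.8, 41.6, 47 and 39.9 CPM in the U2AF1(S34F) mice, which did not overlap (log2 fold change 0.68, SE 0.13, adjusted p = 0.00196). Under sudemycin D6 its levels were 19.9, 41.1, 26.3, 17.7 and 20.5 CPM and 26.4, 25.5, 33.9, 28 and 30.2 CPM, with mouse 8 at the top of both groups (log2 fold change 0.20, SE 0.20, adjusted p = 0.481). Among the 37 genes, Ifit2 and Samd9l were the 2 whose vehicle groups were separate with U2AF1(S34F) higher, beside 9.91% of all genes, and Ifi44, Trim12a and Trim25 the 3 with U2AF1(S34F) lower, beside 10.3%. Under sudemycin D6 the groups of 3 genes were separate with U2AF1(S34F) lower (Eif2ak2, Ifi44 and Trim12a, beside 9.3%), and of 0 with it higher, beside 10.4%.

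**Figure D4:**
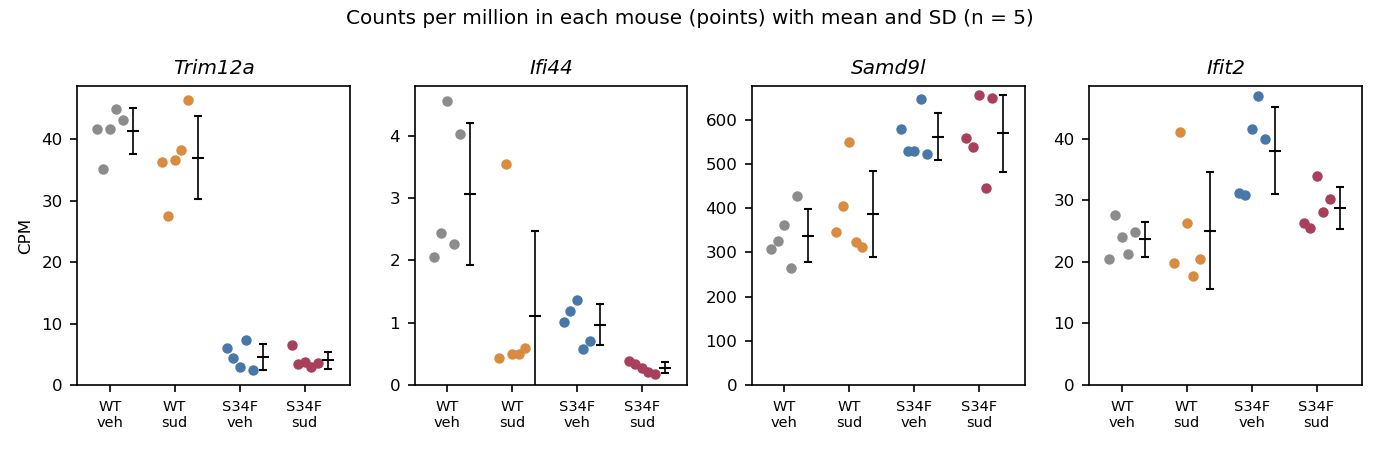
Level in CPM (linear axes from 0) of Trim12a, Ifi44, Samd9l and Ifit2 in each mouse, by genotype and treatment (veh, vehicle; sud, sudemycin D6). Points are mice, and lines are the mean ± SD of 5 mice, cut at the axis where they would reach below 0. Trim12a lies at 27.6 to 46.5 CPM in the U2AF1(WT) mice and at 2.42 to 7.41 CPM in the U2AF1(S34F) mice.

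Sudemycin-treated U2AF1(S34F) mice were also set against vehicle-treated U2AF1(WT) mice, the pair that differs in both transgene and drug and that holds neither of the 2 mice that stood apart. Of the 37 genes 23 were lower and 3 higher, beside 50.2% of all 14761 genes called (25.1% higher, 25.1% lower). The median was −0.37 over the 37 genes and 0.00 over all genes. Trim12a was 10.2-fold lower (log2 fold change −3.36, SE 0.18, adjusted p = 1.26e-07) and Ifi44 9.79-fold lower (log2 fold change −3.29, SE 0.29, adjusted p = 3.22e-06). Irf7 was 2.52-fold lower (log2 fold change −1.33, SE 0.09, adjusted p = 2.98e-07), with 37.8 CPM in the lowest vehicle-treated U2AF1(WT) mouse and 18.1 CPM in the highest treated U2AF1(S34F) mouse. Xaf1 (log2 fold change −1.21, SE 0.13, adjusted p = 2.01e-05), Mx2 (log2 fold change −1.41, SE 0.18, adjusted p = 8.54e-05) and Usp18 (log2 fold change −1.36, SE 0.17, adjusted p = 8.71e-05) were separate between these groups too, as were Isg15 (log2 fold change −1.61, SE 0.21, adjusted p = 8.93e-05) and Ifit3 (log2 fold change −1.68, SE 0.23, adjusted p = 0.000145).

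The other genes that were lower in that pair were Oasl1 (−1.23), Ifit1 (−1.13), Ifi27l2a (−0.97), Oas3 (−0.69), Rtp4 (−0.67), Oas2 (−0.63), Zbp1 (−0.62), Eif2ak2 (−0.60), Oasl2 (−0.54), Oas1a (−0.53), Parp14 (−0.34), Irf9 (−0.30), Herc6 (−0.28), Stat2 (−0.27) and Trim25 (−0.25), with SE from 0.07 to 0.21 and adjusted p up to 0.0520. All 6 genes of the OAS and PKR group, all 4 of the ISG15 system and all 3 transcription factors were thus lower. Samd9l (log2 fold change 0.75, SE 0.13, adjusted p = 0.000673), Gbp3 (log2 fold change 0.45, SE 0.12, adjusted p = 0.00859) and Ifit2 (log2 fold change 0.28, SE 0.10, adjusted p = 0.0357) were higher. The 2 groups were separate with the treated U2AF1(S34F) mice lower for 16 genes, beside 12.3% of all genes, and higher for Samd9l, beside 11.9%.

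Over the 5 pairwise comparisons and the fits of all mice, 32 of the 37 genes were called at least once, beside 64.1% of the 15403 genes tested in any of these fits. The 5 that never were are Cxcl10, Ddx58, Dhx58, Dtx3l and Ifi35. Cxcl10 had the highest SE among these, and mouse 8 stood at 8.26 CPM against 0.403 to 1.59 CPM in its group mates. Dtx3l shares 8.0% of its exonic bases with Parp9 on the opposite strand, Ifi35 16.8% with Gm11626 and Cxcl10 8.75% with Art3, and whether the counting used strand is not given in the sources used here.

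Because both the transgene and the drug act on splicing, the use of each annotated junction was compared with the other junctions of its gene. For the drug, 0 of 296 junctions in 31 member genes were called in U2AF1(WT) mice, beside 0.00945% of all junctions tested, and 0 of 288 in 30 genes in U2AF1(S34F) mice, beside 0.0206%. At an unadjusted p under 0.05 there were 3 and 7, and limma called 0 in both. For the genotypes, 2 of 302 junctions were called under vehicle (beside 1.62% of all junctions) and 3 of 285 under sudemycin D6 (beside 2.32%). In the pair that differs in both, 4 of 290 were called (beside 1.67%). The called junctions of these comparisons lay in Trim12a, Eif2ak2, Parp9 and Herc6. On simulated data for the genotypes under vehicle the false share of this test was 15.4%, above the FDR threshold. Junction calls with an adjusted p close to the threshold are therefore less certain than the threshold states.

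The splice sites of these junctions, with 20 intron and 5 exon bases, are shown because U2AF1 reads the end of the intron. Each is written 5′ to 3′ on the strand of its gene in build NCBIM37, with the last 3 intron bases in capitals for acceptors and the first 3 for the donors.
Trim12a exon 2 acceptor, chr7:111455897-111455921, minus strand: tcaccatcccaataacaTAGgcacc
Trim12a exon 4 acceptor, chr7:111452896-111452920, minus strand: cccttttcttatctctgAAGaatca
Eif2ak2 exon 4 acceptor, chr17:79273415-79273439, minus strand: catctcttttttctttgTAGgtgga
Herc6 exon 19 acceptor, chr6:57609650-57609674, plus strand: tttaaatcaattttcaaTAGgaatt
Parp9 exon 1 donor of the called junction, chr16:35939288-35939312, plus strand: gagggGTAaagagtttcacctgttt
Parp9 upstream donor joined to the same acceptor, chr16:35939142-35939166, plus strand: acccgGTGagtagttcgcacgctcg
Parp9 acceptor of both donors, chr16:35941099-35941123, plus strand: ttctttctatctgttccCAGaaaca
The annotated junctions of the deposited data that belong to 1 gene have 162670 acceptors. Of these 63.8% end in CAG, 29.6% in TAG and 5.78% in AAG. The acceptors of Eif2ak2 exon 4, Trim12a exon 2 and Herc6 exon 19 end in TAG, that of Trim12a exon 4 in AAG and that of Parp9 in CAG.

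In Eif2ak2 the junction from exon 3 to exon 4 (chr17:79273419-79275522) was used less in U2AF1(S34F) mice. Its reads in single mice were 75, 157, 91, 77 and 163 in the vehicle-treated and 104, 175, 168, 122 and 71 in the sudemycin-treated U2AF1(WT) group. In the U2AF1(S34F) mice they were 32, 58, 96, 48 and 42 with vehicle and 44, 43, 32, 56 and 32 with the drug. The treated groups were separate, and under vehicle mouse 5 with 96 reads lay within the U2AF1(WT) range. The share among the 16 junctions of the gene was 5.36 ± 1.33% and 6.25 ± 1.91% with the WT transgene, against 2.59 ± 0.882% and 2.62 ± 0.391% with S34F (vehicle and drug, mean ± SD, n = 5). The log2 difference in usage was −1.0 under vehicle (edgeR's diffSpliceDGE, adjusted p = 0.0167), −1.21 under sudemycin D6 (adjusted p = 0.00497) and −0.99 in the pair that differs in both (adjusted p = 0.0104).

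In Trim12a the junction from exon 1 to exon 2 (chr7:111455901-111463925) stood apart from the rest of the gene. It had 156, 266, 155, 142 and 111 reads in the vehicle-treated and 114, 100, 99, 136 and 66 in the sudemycin-treated U2AF1(WT) mice. In the U2AF1(S34F) mice it had 64, 146, 138, 120 and 107 reads with vehicle and 129, 139, 46, 95 and 107 with the drug. The genotypes overlapped in these reads, whereas the 13 other junctions of the gene together had 1019 to 2172 and 959 to 1672 reads with the WT transgene, against 33 to 298 and 68 to 227 with S34F. The first junction thus made up 9.81 ± 3.79% and 6.96 ± 1.96% of the gene's junction reads with the WT transgene, against 48.5 ± 22.7% and 46.9 ± 13.2% with S34F (vehicle and drug, mean ± SD, n = 5). Its usage differed by 2.14 under vehicle (log2, adjusted p = 0.00586), 2.77 under sudemycin D6 (adjusted p = 2.86e-07) and 2.27 in the pair that differs in both (adjusted p = 4.97e-06). Under sudemycin D6 the junction from exon 3 to exon 4 was used less in U2AF1(S34F) than in U2AF1(WT) mice (−1.01, adjusted p = 0.0755). Under vehicle this genotype difference was −1.29 and was not called (adjusted p = 0.155). Sudemycin D6 against vehicle was not called for this junction in either genotype. As with the gene counts, reads of near-identical relatives may be placed on these junctions.

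**Figure D5:**
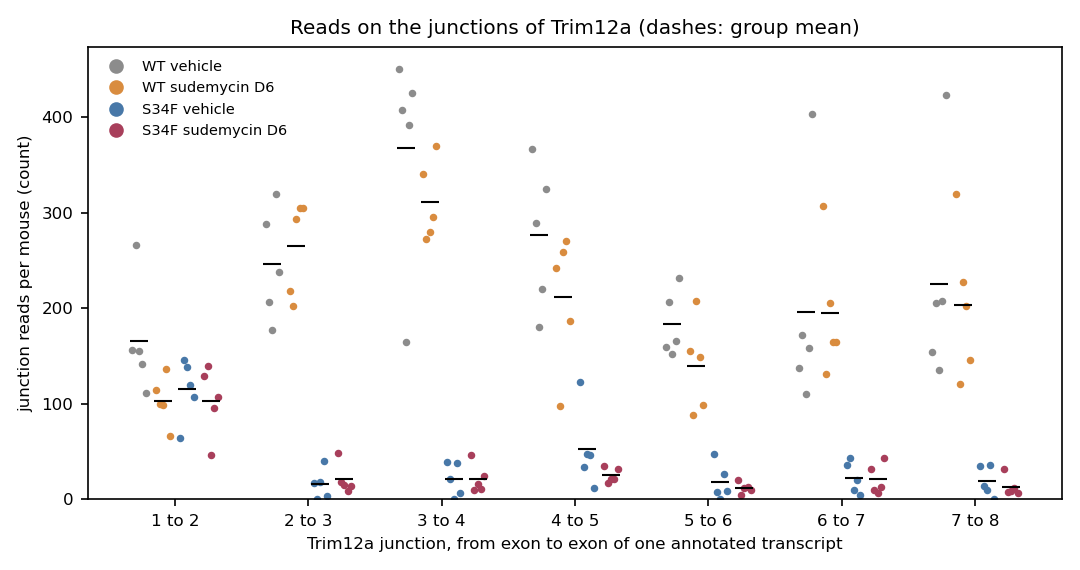
Reads on the successive junctions of Trim12a, from exon 1 to 2 through exon 7 to 8, in each mouse by genotype and treatment. The junction from exon 1 to 2 has 46 to 266 reads over all 20 mice with both genotypes in the same range, whereas the later junctions have fewer reads in the U2AF1(S34F) mice.

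Parp9 and Herc6 had a junction called only in the comparison of treated U2AF1(S34F) with vehicle-treated U2AF1(WT) mice among those run. In Parp9, which encodes a partner of DTX3L, the junction from the downstream exon 1 donor (chr16:35939292-35941119) made up 3.18 ± 0.56% of the gene's junction reads in the vehicle-treated U2AF1(WT) mice and 1.04 ± 0.555% in the treated U2AF1(S34F) mice (mean ± SD, n = 5; log2 usage −1.51, adjusted p = 0.03). The other 2 groups lay between them, at 1.90 ± 0.723% and 1.78 ± 0.602%. In Herc6 the junction from exon 18 to exon 19 (chr6:57608169-57609670) went from 2.46 ± 1.45% to 4.90 ± 2.47% (log2 usage 1.06, adjusted p = 0.0981). These groups overlapped, at 1.13 to 4.81% (13 to 40 reads) and 2.61 to 8.54% (21 to 81 reads) in single mice. The sudemycin-treated U2AF1(WT) mice lay at 3.15 ± 0.919% and the vehicle-treated U2AF1(S34F) mice at 3.85 ± 2.02%.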

How the data were processed

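Bone marrow RNA of 20 recipient mice was extracted with miRNeasy, treated with Turbo DNA-free, depleted with Ribozero, made into stranded TruSeq libraries and read as paired ends of 126 bp. Per the labels and methods, the authors aligned reads with TopHat2 2.0.8 to mm9 (NCBI build 37) and used SAMtools. They deposited raw counts (whole numbers, not normalized) for 37620 genes and 554616 junctions. The read counter and its strand setting are not given in the sources used here.

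The tests across genes used edgeR 4.0.16 under R 4.3.3 (filterByExpr, TMM, robust quasi-likelihood fit, prior count 2), with Benjamini-Hochberg adjustment over all genes and FDR<10%, as in the study's methods. Each of 5 pairs of groups was fitted on its 10 mice, and the drug effect with genotype as a term and the interaction on all 20. Junctions with both ends annotated (181355, of which 178139 belong to 1 gene) were tested for usage with edgeR's diffSpliceDGE, limma 3.58.1 being the alternative. DESeq2 1.42.0, other filters, scalings and thresholds, sums of junction counts and a fit with the shared replicate number were also run, as was every comparison with 1 mouse omitted.

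The members and lists were chosen with earlier results of these data known. One pathway list is not reported here. Values in every mouse were given for the 6 called members with the smallest FDR in the drug fit over both genotypes and in the comparison of treated U2AF1(S34F) with vehicle-treated U2AF1(WT) mice, and exceptions are named. Of the junction-end and promoter sequences, the first came from NCBIM37 and the second from RefSeq GRCm38.p6, read with samtools 1.23.1 and Python 3.11.15. On simulated data for the drug in U2AF1(WT) mice (14763 genes), 18.0% of 200 genes with a log2 change of 0.5 and 72.5% with a change of 1 were recovered. Changes of a log2 of 1 can therefore be missed too, and smaller ones more often. For the interaction (15392 genes) 59.0% were recovered at a change of 1. For junction usage, simulated for the genotypes under vehicle (114686 junctions), 90.5% were recovered at a change of 2. The false share there was 15.4%, above the FDR threshold used for calls.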

Additional observations from a re-analysis of the deposited data

Results flagged for a closer look

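In each group of 5 mice, the gap between the highest or lowest mouse and its neighbour was divided by the range of the group, on log2(CPM + 0.5), and set against Dixon's critical value of 0.71. The value was passed in 21 of 148 combinations of gene and group, where chance gives about 1 in 20. The mice are not independent over genes, since one sample enters all 37.

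Mouse 8 of the sudemycin-treated U2AF1(WT) group stood apart as the highest in 11 genes. The ratio was 0.831 for Irf9, 0.743 for Stat2, 0.905 for Zbp1, 0.787 for Oasl2, 0.797 for Ifit1, 0.713 for Isg15, 0.753 for Usp18, 0.866 for Herc6, 0.736 for Parp14, 0.753 for Gbp2 and 0.888 for Ifi44. Mouse 5 of the vehicle-treated U2AF1(S34F) group stood apart as the highest in 5 genes, with 0.807 for Irf7, 0.757 for Ifit1, 0.74 for Ifit3, 0.773 for Isg15 and 0.943 for Usp18.

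The remaining 5 were spread over other mice. In the vehicle-treated U2AF1(WT) group mouse 1 was high for Irf7 (0.729) and mouse 4 for Stat2 (0.794). In the sudemycin-treated U2AF1(S34F) group mouse 12 was high for Oas1a (0.801), mouse 6 was high for Trim25 (0.74) and mouse 9 was low for Oasl2 (0.909).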

How the results depend on the processing

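Of the values of the 37 genes that were called in the full comparisons, 618 kept direction and side of the threshold under alternatives other than leaving out mice, 76 lost the call and 1 turned: Ifit2, in treated U2AF1(S34F) against vehicle-treated U2AF1(WT) mice, went from 0.28 to −0.024 (adjusted p = 0.928) with sums of annotated junctions, and the cause was not tested. When each mouse was left out, 978 of the called values stayed and 102 lost the call. Of the values that were not called, 129 of 2250 changed sign and 50 gained a call when a mouse was left out, and 35 and 20 of 1282 under the other alternatives. For the drug in U2AF1(WT) mice, 2 genes were called at FDR<5% and 1 with junction sums, and 2 to 15 when a mouse was left out (15 without mouse 8). For the drug in U2AF1(S34F) mice the range was 17 to 20, and over both genotypes 16 to 27 (27 without mouse 8). Without both mouse 8 and mouse 5 of the vehicle-treated U2AF1(S34F) group, an alternative added after seeing the data, 22 were lower over both genotypes. The interaction was called for 0 genes in each of these fits, but its values below 0 went from 33 of 37 to 28 without mouse 8 and to 11 without both.

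For the genotypes under vehicle, 6 genes were called in one model of all mice and 8 with junction sums, and 9 to 18 when a mouse was left out (18 without mouse 3 of the U2AF1(S34F) group). Under sudemycin D6, 5 were called without a filter on low counts, 5 at FDR<5% and 4 with junction sums, and 5 to 10 when a mouse was left out (5 without treated U2AF1(S34F) mouse 2, 9 or 10, and 10 without mouse 8, where values below 0 went from 27 to 12 of 37). The pair that differs in both gave 17 in one model, and 24 to 28 when a mouse was left out. Member junctions called under vehicle numbered 6 with limma and 2 to 4 when a mouse was left out (4 without U2AF1(WT) mouse 2). Under sudemycin D6 they numbered 5 with at least 10 counts in every mouse and 2 to 5 when a mouse was left out (5 without U2AF1(WT) mouse 9 or U2AF1(S34F) mouse 2). In the pair that differs in both they numbered 9 with limma and 3 to 5 when a mouse was left out. The drug gave 0 junctions each time.

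The labels do not name mice of the 2 genotypes that share a number as pairs. Their deviations correlated at 0.108, 0.157 and −0.0883 under vehicle (3 pairs) and at 0.00481, 0.224, 0.319 and −0.158 under sudemycin D6 (4 pairs). Mice with different numbers were not compared in this way, so these values do not decide whether a shared number marks anything else in common. With the number as a replicate block, over only the mice that share one, 8 genes were called under vehicle (5 higher, 3 lower, beside 31.1% of all genes) and 10 under sudemycin D6 (8 higher, 2 lower, beside 25.4%). The latter fit also lacks mouse 8, whose omission alone gave 7 higher and 3 lower. No paired analysis was possible for the drug because the groups compared share no number, nor for the pair that differs in both, which shares 1.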
